A study of Homo sapiens with 3 samples.

Results

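The leucine tRNA probes of a human tRNA array were Leu1h, Leu2h, Leu3h, Leu4h and Leu6h, chosen by name as 5 of the 41 human probes, and all of their spots entered. MCF-10A, a non-tumorigenic human breast epithelial cell line, received an siRNA against eIF3e (si-eIF3e, the knockdown) or a control siRNA (si-control), in either case at 20 nM for 72 h in medium with insulin, EGF, hydrocortisone and serum. Knockdown RNA was labelled with Cy3 and control RNA with Atto635 on two-colour arrays, which gave 3 ratios from 2 knockdown and 3 control RNAs of independently grown cultures. Per the titles, ratio 1 set knockdown RNA 1 against control RNA 1, ratio 2 the same knockdown RNA against control RNA 2, and ratio 3 knockdown RNA 2 against control RNA 3. The array holds tRNA probes and controls, so neither the loss of eIF3e nor the epithelial identity of the cells could be checked.

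Transfer RNAs carry amino acids to the ribosome and read the codons of the mRNA through their anticodon. Leucine is read by several tRNAs with different anticodons (isoacceptors), each encoded by several gene copies, and leucine tRNAs belong, with those for serine and selenocysteine, to the tRNAs with a long variable arm. eIF3e is a subunit of eIF3, a factor of translation initiation that has also been linked to elongation. The RefSeq annotation of GRCh38.p14 lists 32 nuclear leucine tRNA genes with 5 anticodons. AAG has 9 genes, CAG 9, CAA 7, TAA 4 and TAG 3. The files name a probe by amino acid and number and pair no probe with an anticodon, so no probe is assigned to an isoacceptor here and no probe or tRNA sequence is shown.

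None of the 5 leucine probes was called changed after eIF3e knockdown. On the scale of the spiked standards, 4 spiked tRNAs added in equal amounts to each RNA, Leu4h had the highest estimate, 1.28-fold in knockdown over control, and Leu6h the lowest, 0.884-fold. Leu1h, Leu3h and Leu2h lay between them at 1.17-fold, 1.12-fold and 1.08-fold. With the dye control array subtracted, the 5 estimates drew together, between 0.914-fold for Leu6h and 1.08-fold for Leu4h. Leu6h was the only leucine probe below 0 in log2 in all 3 ratios on both scales. Among all 41 human probes, 2 lay below 0 in all 3 ratios on the standards scale and 5 with the dye control subtracted. Leu6h was called lower when the arrays were centred on the median human probe, as were 9.76% of all human probes. With the dye control subtracted as well it was called lower (limma adjusted p = 0.0172), as were 12.2% of all human probes. It was not called when the centring was repeated after the subtraction (adjusted p = 0.0775), an order chosen after seeing the data.

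The arrays held 800 spots, with 16 per human probe and 24 per standard, and 0 leucine spots were flagged or saturated. The table of ratio 2 equals that of ratio 1 in 56 of 57 columns, and the background-subtracted Atto635 intensity is the column that differs, so ratios 1 and 2 share the whole Cy3 measurement. The flags, saturation and local backgrounds listed for ratio 2 are thus those of ratio 1. The median human spot had a Cy3 intensity of 2875 in knockdown RNA 1 and 2236 in knockdown RNA 2, against Atto635 intensities of 1605, 1319 and 734 in control RNAs 1, 2 and 3. By mean pixels, the spots named H2O reached a Cy3 median of 4207.5 in ratio 1 and 11207 in ratio 3, and by median pixels 33 and 290. By median pixels the lowest Cy3 value of a leucine probe was 682 on array 1 and 494.5 on array 3, both for Leu6h. The part of stray signal in the leucine values was not tested. The label protocol places periodate oxidation, which destroys uncharged 3' ends, under abundance arrays, so it is uncertain whether these values are amounts of all or of charged tRNA.

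Leu1h had a median spot intensity of 3984 in knockdown RNA 1 and 2748.5 in knockdown RNA 2, against 2201.5, 1800.5 and 1007 in control RNAs 1, 2 and 3. Leu2h had 3281 and 2359 in the knockdown RNAs, against 1982.5, 1883 and 849.5 in the control RNAs. Leu3h, the brightest of the 5, had 4761.5 and 3001.5 in the knockdown RNAs, against 2786.5, 2201.5 and 1075.5 in the control RNAs. These 3 probes were far above the local background of 28 to 37 in every channel, where ratio 2 repeats the background values of ratio 1. The dim pair was Leu4h and Leu6h. Leu4h had 903 and 583 in the knockdown RNAs, against 510.5, 297.5 and 162 in the control RNAs. Leu6h had 721.5 and 475.5 in the knockdown RNAs, against 447, 404.5 and 208.5 in the control RNAs. Raw intensities of the 2 dyes are not on 1 scale, so the higher Cy3 values are no measure of more tRNA, and the brightness of different probes does not rank the tRNAs.

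**Figure D1:**
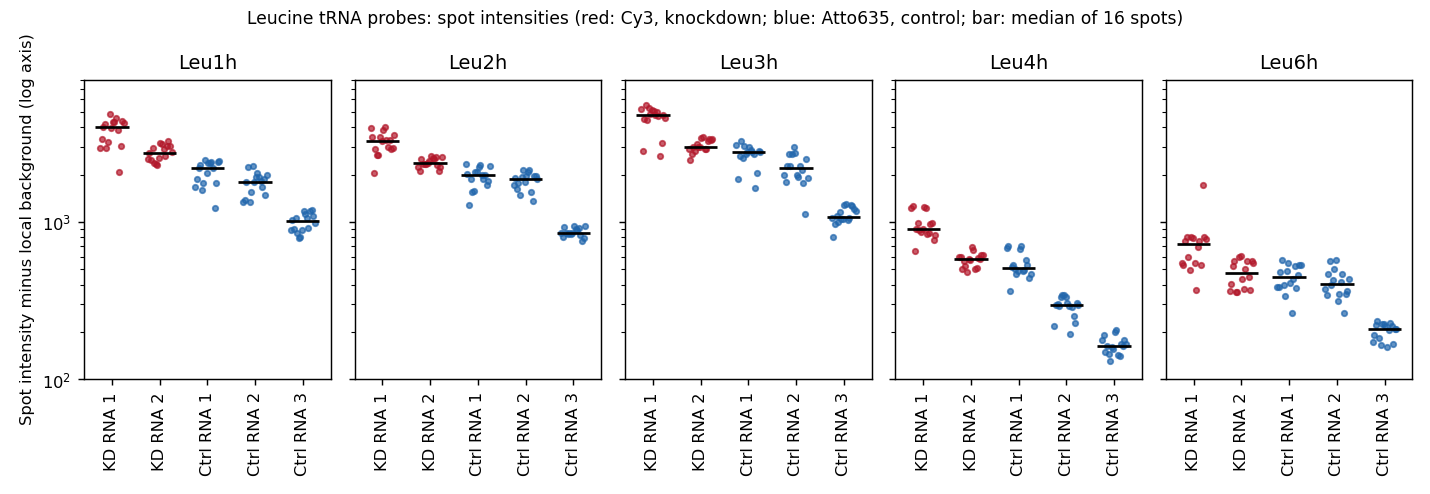
Background-subtracted intensity (log axis) of the 16 spots of each leucine probe in Cy3, with knockdown (KD) RNAs 1 and 2 in red, and in Atto635, with control (Ctrl) RNAs 1, 2 and 3 in blue; bars are medians. Control RNA 3 is the dimmest for all 5 probes, and Leu4h has a median of 297.5 in control RNA 2 against 510.5 in control RNA 1.

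Set against the standards of the same channel, the 2 knockdown levels overlapped the 3 control levels for 5 of 5 leucine probes. Over all 41 human probes, 7.32% had both knockdown levels above and 2.44% both below every control level. For Leu4h the levels (log2 against the standards) were -3.76 and -4.25 in the knockdown RNAs, against -3.93, -4.41 and -4.68 in the control RNAs. For Leu6h they were -4.07 and -4.52 in the knockdown RNAs, against -4.11, -4.03 and -4.39 in the control RNAs. In each set the array of ratio 3 gave the lowest level. The knockdown RNAs differed by 0.36 to 0.55 and the control RNAs by 0.36 to 0.75 over the 5 probes. These ranges also include differences between arrays in what each spot bound. A ratio of channels read from the same spots removes such differences. In ratio 2, whose Cy3 values equal those of ratio 1, the channels shared less of the variation between spots. Their correlation over the spots of a leucine probe was -0.16 to 0.66, against 0.69 to 0.99 in ratio 1. How far ratio 2 removes such differences for a whole probe was not tested.

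Leu1h had log2 ratios of 0.14, 0.26 and 0.25 in ratios 1, 2 and 3. All 3 were above 0, and the estimate was 0.22 (SE 0.13, 95% interval -0.04 to 0.48, limma adjusted p = 0.204). Leu3h had 0.049, 0.16 and 0.24, also above 0 in 3 of 3 ratios, with an estimate of 0.16 (SE 0.13, interval -0.10 to 0.43, adjusted p = 0.293). Leu2h had 0.026, -0.0068 and 0.24, so that the 2 ratios with knockdown RNA 1 lay at 0 and the ratio with knockdown RNA 2 above it. Its estimate was 0.11 (SE 0.13, interval -0.16 to 0.37, adjusted p = 0.499). The median human probe also rose, from 0.050 in ratio 1 to 0.28 in ratio 3. Centred on that median, Leu2h was at -0.024, -0.27 and -0.047, with ratio 2 the one apart.

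Leu4h had log2 ratios of 0.067, 0.61 and 0.37, above 0 in 3 of 3 ratios and the widest spread of the 5 (SD 0.27). Counted from the top of the 41 human probes it had ranks 17, 3 and 9 in the 3 ratios and rank 6 by its estimate. That estimate was 0.35 (SE 0.13, interval 0.09 to 0.62), with an unadjusted p of 0.0095 and a limma adjusted p of 0.0558, which missed the threshold of 0.05. Without ratio 2 it was at 0.22 (adjusted p = 0.320), and without ratio 1 at 0.49 (adjusted p = 5.66e-08). The same fit without ratio 1 called 75.6% of all human probes higher and 4.88% lower, among them Leu1h, Leu3h and Leu4h as higher and Leu6h as lower. The SE of that fit was 1 common value of 0.067 for all probes. Its adjusted p for Leu4h therefore does not measure the spread of Leu4h itself, at 0.61 and 0.37. With plain background subtraction in place of normexp and its offset, Leu4h was called, at 0.52 (adjusted p = 0.0279).

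Leu6h had log2 ratios of -0.20, -0.22 and -0.13, below 0 in 3 of 3 ratios and the narrowest spread of the 5 on this scale (SD 0.044). Centred on the median human probe, its SD was 0.12. That lay above those of Leu3h (0.049) and Leu1h (0.065) and below those of Leu2h (0.13) and Leu4h (0.18). On the standards scale Leu6h had ranks 38, 40 and 40 of 41 from the top, and its estimate was -0.18 (SE 0.13, interval -0.44 to 0.09, limma adjusted p = 0.269). Without ratio 2 it was at -0.17 (adjusted p = 0.372). With plain background subtraction it was at -0.08 (adjusted p = 0.715), less than 1 SE from 0.

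The fit drew 1 common variance from all probes, so the SE of 0.13 is the same for each and is not the probe's own spread. Over all human probes, 9.76% were called higher and 2.44% lower on the standards scale, against 0 of the 5 leucine probes in either direction, with 1 leucine probe (Leu4h) at an unadjusted p under 0.05. The median estimate of the 5 was 0.16, and that of all 41 human probes 0.21. Among the leucine probes 3 lay above 0 and 1 below 0 in all 3 ratios, and among all human probes 29 and 2.

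**Figure D2:**
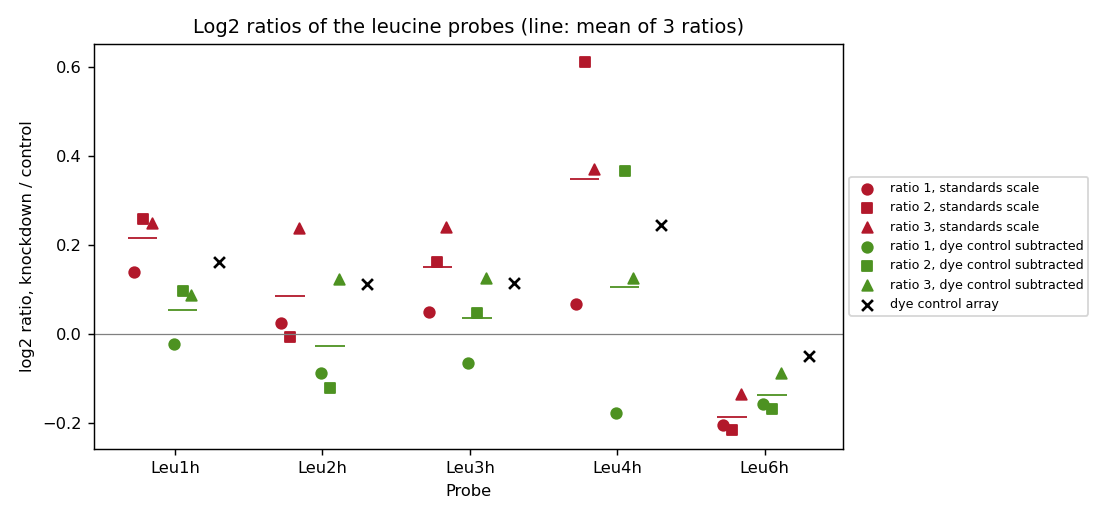
Log2 ratio of knockdown over control for each leucine probe in ratios 1 to 3, on the standards scale (red) and with the dye control subtracted (green), with the ratio on the dye control array itself (crosses); short lines are means of 3 ratios. Leu6h lies below 0 at every point, and Leu4h spreads from 0.067 to 0.61 on the standards scale.

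The dye control is a single array named as such, and the labels do not state which RNA it held in either dye. Its log2 Cy3 to Atto635 ratio was 0.16 for Leu1h, 0.11 for Leu2h, 0.11 for Leu3h, 0.24 for Leu4h and -0.048 for Leu6h, with a median of 0.11 over all human probes. Leu4h thus had rank 4 and Leu6h rank 36 of 41 on the dye control. These are also the leucine probes with the highest and the lowest knockdown estimate. Leu6h was dim on the dye control array, with median intensities of 332.5 in Cy3 and 149.5 in Atto635 and lowest spots of 65 and 30. With normexp, dye subtraction moved its knockdown estimate from -0.18 to -0.13, and with plain background subtraction from -0.08 to -0.21. The sign of its dye ratio thus depended on the background correction. The part of dye bias in the uncorrected ratios was not tested beyond subtracting this array.

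With the dye control subtracted, Leu4h was at -0.18, 0.37 and 0.13 in the 3 ratios and no longer had 1 sign. Its estimate was 0.11 (SE 0.13, interval -0.16 to 0.37, limma adjusted p = 0.785), and it turned to -0.025 without ratio 2 (adjusted p = 0.965). Without ratio 1 it was called, at 0.25 (adjusted p = 0.00229), in a fit that called 46.3% of human probes higher and 0% lower. Leu6h was at -0.16, -0.17 and -0.087, still below 0 in 3 of 3 ratios, with an estimate of -0.13 (SE 0.13, interval -0.39 to 0.13, adjusted p = 0.748). Plain background subtraction moved the dye-subtracted estimates to -0.21 for Leu6h (adjusted p = 0.629) and 0.18 for Leu4h (adjusted p = 0.711), with neither called.

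Leu1h was at -0.022, 0.096 and 0.088, with an estimate of 0.06 (SE 0.13, limma adjusted p = 0.845). Leu3h was at -0.066, 0.048 and 0.13, with an estimate of 0.05 (adjusted p = 0.861). Leu2h was at -0.087, -0.12 and 0.12, with an estimate of -0.0059 (adjusted p = 0.986). For these 3 probes ratio 1 lay below 0 and ratio 3 above it, and these ratios share no culture. The median human probe also went from -0.086 in ratio 1 to 0.19 in ratio 3. The change of sign is therefore not particular to the leucine probes. In this fit 7.32% of all human probes were called higher and 0% lower, against 0 of the 5 leucine probes in either direction, and an unadjusted p under 0.05 was found for 0 of them. The median estimate was 0.05 for the leucine probes and 0.09 for all human probes.

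**Figure D3:**
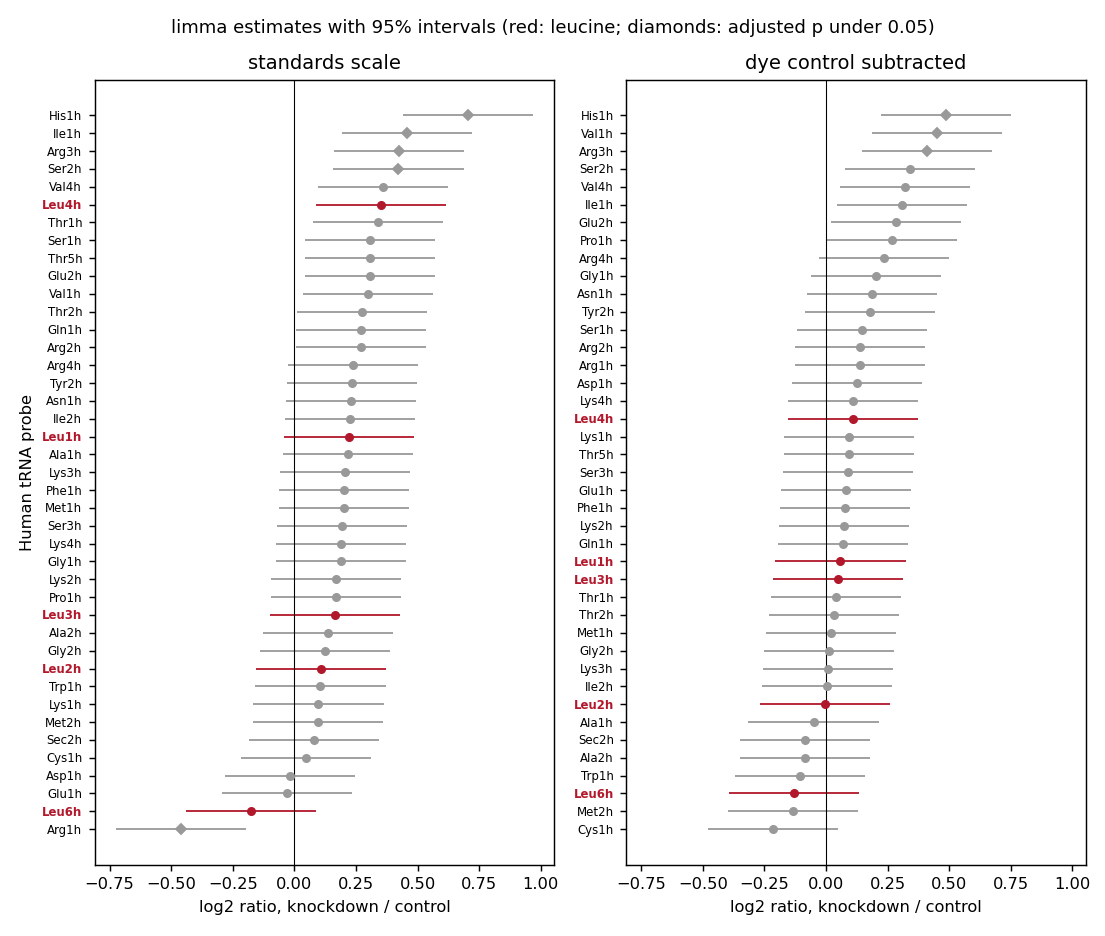
limma estimates of the log2 ratio of knockdown over control for all 41 human probes with 95% intervals, on the standards scale (left) and with the dye control subtracted (right); leucine probes are red and diamonds mark an adjusted p under 0.05. Leu4h has rank 6 from the top on the left and 18 on the right, and Leu6h ranks 40 and 39.

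When each array was centred on its median human probe rather than on the standards, Leu6h was at -0.25, -0.48 and -0.42 and was called lower, at -0.39 (SE 0.07, limma adjusted p = 5.48e-05). It was 1 of 4 probes called lower, 9.76% of the 41, and no other leucine probe was called on that scale. Within-array loess also called it lower, at -0.41 (adjusted p = 0.0187), where 2.44% of human probes were called lower. With the dye control subtracted as well, the median-centred Leu6h was at -0.23 (SE 0.07, adjusted p = 0.0172), and 12.2% of human probes were called lower. When the centring was repeated after the subtraction, an order chosen after seeing the data, it was again at -0.23 but not called (adjusted p = 0.0775), with 2.44% called lower. On the standards scale Leu6h was also called lower without ratio 1, at -0.18 (adjusted p = 0.0171). Its median-centred call after dye subtraction depended on the order of the steps.

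The spread among the leucine probes does not depend on the scale of an array. On uncorrected ratios Leu6h lay below Leu1h, Leu2h, Leu3h and Leu4h in 3 of 3 ratios. Ratios 1 and 2 share their Cy3 values, so the 3 values of each difference below are not independent. Each SD is over 3 ratios from 2 knockdown RNAs. The difference of Leu1h minus Leu6h was 0.34, 0.47 and 0.38, a mean of 0.40 ± 0.07 (SD, n = 3). For Leu3h minus Leu6h it was 0.25, 0.38 and 0.38, a mean of 0.34 ± 0.07 (SD, n = 3). For Leu4h minus Leu6h it was 0.27, 0.83 and 0.51, a mean of 0.53 ± 0.28 (SD, n = 3). Dye subtraction brought these means to 0.19, 0.17 and 0.24, and Leu4h minus Leu6h was then -0.021 in ratio 1. Leu2h minus Leu6h averaged 0.27 ± 0.09 before and 0.11 ± 0.09 after subtraction (SD, n = 3). Leu1h minus Leu3h had a mean of 0.07 ± 0.05 before and 0.02 ± 0.05 after subtraction, and Leu2h minus Leu3h a mean of -0.06 ± 0.09 both before and after (SD, n = 3).

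Because ratios 1 and 2 share their Cy3 values, the difference between them lies wholly in the Atto635 values of control RNAs 1 and 2. Over the 41 human probes, ratio 2 minus ratio 1 had a median of 0.21 and ran from -0.033 to 0.54. The ends of that range were leucine probes, with Leu4h the highest at 0.54 and Leu2h the lowest at -0.033. Leu6h was at -0.012, Leu3h at 0.11 and Leu1h at 0.12, all below the median. For Leu4h this difference between control measurements, 0.54, was larger than its estimate for the knockdown, 0.35. The means of ratios 1 and 2 and the value of ratio 3 were 0.34 and 0.37 for Leu4h, -0.21 and -0.13 for Leu6h, and 0.0095 and 0.24 for Leu2h. These gaps hold differences of the control RNAs as well as of the knockdown RNAs.

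**Figure D4:**
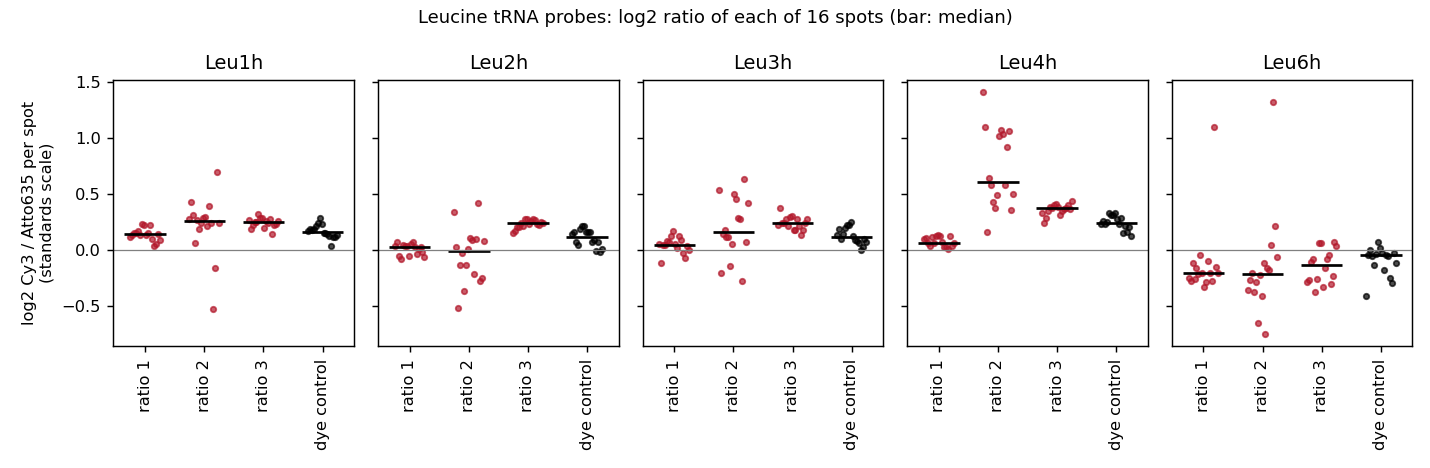
Log2 ratio of Cy3 over Atto635 of each of the 16 spots of a leucine probe on the standards scale, in ratios 1 to 3 (red) and on the dye control array (black); bars are medians. Spots of Leu1h, Leu2h, Leu3h and Leu4h scatter more in ratio 2 than in ratios 1 and 3, and Leu6h has 1 spot at 1.10 in ratio 1.

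Spots are technical repeats on 1 array, and their agreement differed between the ratios. In ratio 1 the SD over the 16 spots was 0.055 for Leu1h, 0.050 for Leu2h, 0.073 for Leu3h and 0.042 for Leu4h. In ratio 2 these SDs were 0.27, 0.25, 0.27 and 0.35, and in ratio 3 they were 0.043, 0.038, 0.059 and 0.050. The log intensities of the spots in both channels correlated at 0.980 to 0.989 for these 4 probes in ratio 1 and at 0.933 to 0.982 in ratio 3. In ratio 2 the correlations were 0.57, 0.37, 0.66 and -0.16, over 16 spots of 1 array each and given as a description. Leu6h had SDs of 0.33, 0.46 and 0.15 in ratios 1, 2 and 3 and correlations between channels of 0.69, 0.29 and 0.86. Its SDs in ratios 1 and 2 include 1 spot at 1.10 and 1.32. The median absolute deviation, which a single spot moves little, was 0.093, 0.21 and 0.22 for Leu6h in the 3 ratios. For the other 4 probes it was 0.040 to 0.058, 0.075 to 0.42 and 0.037 to 0.060. For the other 4 probes the values of ratio 2 do not share spot-to-spot variation between channels in the way the other ratios do, and the 5 estimates without ratio 2 are given in the closing section.

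All 16 spots of Leu4h lay above 0 in each of the 3 ratios, and also on the dye control array (0.13 to 0.33). All 16 spots were likewise above 0 for Leu1h in ratios 1 and 3, and for Leu2h and Leu3h in ratio 3. The range of the Leu4h spots was 0.013 to 0.13 in ratio 1, 0.16 to 1.41 in ratio 2 and 0.24 to 0.44 in ratio 3. No Leu4h spot of ratio 1 reached the range of ratio 3. The median human probe also differed, at 0.050 in ratio 1 and 0.28 in ratio 3. The 16 spots of Leu6h ran from -0.33 to 1.10 in ratio 1, with 1 spot above 0. That spot had a Cy3 intensity of 1717, and the probe's median was 721.5. In ratio 2, which reuses that Cy3 spot, 3 spots of Leu6h lay above 0, and 4 spots did in ratio 3. With the mean of the spots in place of the median, Leu6h was at -0.12 (limma adjusted p = 0.559) and Leu4h at 0.41 (adjusted p = 0.345).

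The authors' deposited ratios, which follow the dye-subtracted values (r of 0.968, 0.971 and 0.946 across 43 probes, against 0.662, 0.670 and 0.521 without subtraction), also had Leu6h below 1 in every ratio. The authors' deposited table lists Leu6h at 0.854, 0.806 and 0.927 in the 3 ratios. It lists Leu4h at 0.901, 1.31 and 1.20, with ratio 1 below 1. Leu1h stands at 1.02, 1.06 and 1.05 in the authors' deposited table, Leu2h at 0.958, 0.884 and 1.06, and Leu3h at 0.992, 1.01 and 1.08. Fitted in the same way, the deposited ratios gave 0.18 for Leu4h (limma adjusted p = 0.340) and -0.20 for Leu6h (adjusted p = 0.298), and called none of the 5. How the deposited values were centred is unknown.

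The human probes nearest to Leu4h by distance over the 3 log2 ratios were Glu2h, at 0.11, 0.48 and 0.32, and Val4h, at 0.18, 0.51 and 0.38. Those nearest to Leu6h were Glu1h (distance 0.300), at -0.22, -0.020 and 0.092, and Asp1h (0.348), at -0.25, -0.11 and 0.19. The neighbours of Leu4h were closer, with distances of 0.147 and 0.154. Leu6h shared the low value in ratio 1 with its neighbours, whose ratios 2 and 3 were higher.

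The 4 probes for isoleucine and valine, the other branched-chain amino acids, had a median estimate of 0.33 on the standards scale, with 1 called higher (Ile1h) and 4 of 4 above 0 in all 3 ratios. Their median was 0.32 after dye subtraction, with 1 called higher (Val1h). The 4 probes for serine and selenocysteine, whose tRNAs share the long variable arm, had a median of 0.25 on the standards scale, with 1 called higher (Ser2h), and of 0.12 with the dye control subtracted, with 0 called. The leucine medians, 0.16 and 0.05, were the lowest of these 3 sets on each scale. The sets are small and chosen by name, the difference between them was not tested, and none of the 3 held a probe called lower on either scale. Over all 41 human probes, 2.44% were called lower on the standards scale and 0% with the dye control subtracted. The shares called higher were 9.76% and 7.32%. On the standards scale 29 of the 41 lay above 0 in all 3 ratios.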

How the data were processed

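Per the file headers, the deposited spot tables give an intensity per spot in the 532 (Cy3) and 635 (Atto635) channels after local background subtraction; the scanner software is not given in the sources used. The series matrix gives 1 linear ratio for each probe, deposited by the authors with unstated centring. The labels' protocols add 4 tRNA standards (4 pmol each) to 2 µg of total RNA, and no array had the dyes swapped. From these files, mean-pixel intensities were corrected with normexp (offset 50, limma 3.58.1 in R 4.3.3). Each unflagged spot gave a log2 Cy3 to Atto635 ratio, and the median over a probe's spots, minus the median of the 4 standards, was used. The dye control array, treated in the same way, was subtracted as a second result. limma's lmFit and eBayes were run on the 3 ratios of all 41 human probes, with the knockdown RNA as a block (correlation set to 0.5, since 3 ratios do not allow an estimate) and Benjamini-Hochberg adjustment over the 41. That correlation leaves out noise of the Cy3 array that ratios 1 and 2 share. Errors of the single dye control array are in none of the SEs. The fit was tested on simulated data. The number of arrays limits the precision. The 5 members and the sets compared were chosen with earlier results of these data known. Probes named are the 5 members, the 2 nearest other probes to the highest and the lowest member, and called members of the compared sets.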

Additional observations from a re-analysis of the deposited data

How the results depend on the processing

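Against 0 leucine probes called in either direction on the standards scale, 1 was called lower (Leu6h) with loess and with arrays centred on the median human probe. In these settings 2.44% and 9.76% of all human probes were called lower. Leu4h was the 1 called higher with plain background subtraction, without E.c. Lys-2 and without Yeast Phe-3 in the scale, where 5, 11 and 10 of all 41 probes were called higher. With no replicate block, or with ratios 1 and 2 averaged, 2 were called higher (Leu1h and Leu4h), where 20 and 28 of all 41 probes were called higher. Leaving out 1 ratio gave 0 to 3 called higher and 0 to 1 lower, with calls only without ratio 1. The fit without ratio 1 called 75.6% of all human probes higher and 4.88% lower. After dye subtraction, 1 was called lower (Leu6h) centred on the median human probe, where 12.2% of all human probes were called lower. Leaving out 1 ratio then gave 0 to 1 called higher (Leu4h, at 0.25 without ratio 1, where 46.3% were called higher). The other alternatives for dye-subtracted values called 0. Without ratio 2 the estimates of Leu1h, Leu2h, Leu3h, Leu4h and Leu6h were 0.19, 0.13, 0.14, 0.22 and -0.17 on the standards scale, and 0.033, 0.019, 0.030, -0.025 and -0.12 with the dye control subtracted.

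Leu6h stayed below 0 in 16 of 16 alternatives on the standards scale (-0.41 to -0.08) and in 15 of 15 with the dye control subtracted (-0.23 to -0.014). Leu4h stayed above 0 in 16 of 16 on the standards scale (0.11 to 0.52). Estimates near 0 changed sign. On the standards scale Leu2h turned to -0.10 and Leu3h to -0.05 centred on the median human probe, and to -0.13 and -0.035 with loess; Leu2h turned to -0.0059 with the dye control subtracted and to -0.032 in the deposited ratios. With the dye control subtracted, Leu1h turned to -0.037 and Leu3h to -0.047 centred on the median human probe, and to -0.043 and -0.053 when that centring followed the subtraction. Leu2h turned to 0.011 without E.c. Lys-2, 0.012 without E.c. Tyr-2, 0.0074 with the mean of the spots, 0.010 with ratios 1 and 2 averaged, 0.0022 without ratio 1 and 0.019 without ratio 2. Leu3h turned to -0.0090 without ratio 3, with 0.087 without ratio 1, and Leu4h to -0.025 without ratio 2. The cause of these changes was not tested. Recentring after the dye subtraction and subtraction spot by spot were chosen after seeing the data. A filter on probes brighter than the water spots left 0 of 41 human probes, so it gave no values. No paired analysis between groups was possible because the 3 ratios form 1 group, in which the knockdown RNA is the block.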
